A study of Mus musculus with 4 samples.

Results

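Mature migratory dendritic cells made up 113 of 13569 kept cell barcodes in 4 single-cell RNA libraries of immune cells isolated from mouse brain tumours. A barcode was kept with 200 or more genes and at most 10% of its unique molecular identifiers (UMIs, each standing for 1 captured RNA molecule) from mitochondrial genes, which left 13569 of 16289 barcodes. Members held 3 or more UMIs of Ccr7 and Fscn1 together and 20 or more of the class II genes H2-Aa, H2-Ab1, H2-Eb1 and Cd74. They held none of the T cell gene Cd3e or the B cell gene Cd79a, and at most 3 of the macrophage genes C1qa, C1qb and C1qc. All of these genes were read in the same cells, so their levels describe the choice and are not results.

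The tumours were a genetically engineered glioma model in C57BL/6 mice at the symptomatic stage. The tumours of 2 libraries expressed mutant IDH1 (mIDH1 1 and mIDH1 2) and those of the other 2 wild-type IDH1 (wtIDH1 1 and wtIDH1 2). The study asked how tumour-infiltrating myeloid cells differ between these tumours. The labels give neither the enrichment of the immune cells nor the animals behind each library, so p-values measure the spread between libraries, which may be technical. The libraries totalled 20908476 to 29849183 UMIs. Kept barcodes had medians of 3534 and 2740 UMIs in mIDH1 1 and 2, against 5071 and 4977 UMIs in wtIDH1 1 and 2. Barcodes occurring in more than 1 library numbered 53, none of them a member.

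Conventional dendritic cells take up antigen in tissue and, once activated, enter a maturation programme in which they make the chemokine receptor CCR7 and travel along lymphatic vessels to lymph nodes. There they present peptides on MHC class II to T cells with costimulatory proteins such as CD40, CD80 and CD86. In tumours the same programme also includes molecules that restrain T cells, among them PD-L1 (Cd274), CD200 and the amino acid oxidase IL4I1. FSCN1 bundles actin into the long dendrites of these cells, and CCL22 and CCL17 attract T cells that carry the receptor CCR4.

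The markers divided the members. Among the 113 cells, 5 held no Ccr7 UMI, no Ccl22 and no Il4i1, and 3 or more UMIs of Sox2 and Nes, which are genes of neural stem cells and glioma cells. They entered on 4 to 22 UMIs of Fscn1, which tumour cells also express. Of these Sox2+Nes cells 3 were in mIDH1 1, with 38501, 56390 and 67431 UMIs, and 1 was in mIDH1 2, with 57329 UMIs. The remaining 1, with 11260 UMIs, was in wtIDH1 2. They held at most 3 UMIs of the leukocyte gene Ptprc. The 4 in mIDH1 gave 37.24% of all UMIs of the mIDH1 members. Values below are therefore given for the 108 cells without them (28 and 13 in mIDH1 1 and 2, against 38 and 29 in wtIDH1 1 and 2), and the fits by genotype are given for the 113 cells too.

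Of the 108 cells 98 held Ccl22 or Il4i1, the 2 markers of the label that the rule did not read, and 10 held neither. The marker genes lie, on mm10 with GENCODE M21 (GRCm38), at chromosome 11, 99144196 to 99155077 on the minus strand (Ccr7), chromosome 5, 142960343 to 142973185 (Fscn1), chromosome 8, 94745590 to 94751699 (Ccl22) and chromosome 7, 44816387 to 44840809 (Il4i1), the last 3 on the plus strand. Ccr7 was read in 28 of 28 and 12 of 13 cells of mIDH1 1 and 2, and in 38 of 38 and 29 of 29 cells of wtIDH1 1 and 2, which the rule largely fixes. Ccl22 was read in 24 of 28 and 13 of 13 cells of mIDH1 1 and 2, against 29 of 38 and 26 of 29 cells of wtIDH1 1 and 2. In neutrophil-type barcodes (10 or more UMIs of S100a8 and S100a9 and fewer than 20 of class II), which should lack these genes and were shallower (medians of 1750 to 2331 UMIs), Ccl22 was read in 0.499% and 0.113% in mIDH1 1 and 2, against 1.06% and 2.03% in wtIDH1 1 and 2. Both genes were read in 68 of the 108 cells. The 10 cells with neither (2 and 0 in mIDH1 1 and 2, 6 and 2 in wtIDH1 1 and 2) held Ccr7 at 949 CPM (UMIs of a gene scaled to 1000000 UMIs of the summed cells), against 4245 CPM in the other 98. Their Cacnb3 was 38.0 CPM against 585 CPM, their Relb 123 CPM against 514 CPM, and their level of the monocyte gene Lyz2 was 930 CPM against 40.3 CPM. Lyz2 was read in only 4 of the 10 cells, with a median of 0 UMIs. Other genes were near in both groups, with Cd274 at 721 CPM against 807 CPM and Cd80 at 161 CPM against 155 CPM.

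Of the 113 members 82 held 12 or more UMIs of Ccr7 and Fscn1, 18 held 5 to 11, and 13 held 3 or 4 (6 and 2 in mIDH1 1 and 2, 3 and 2 in wtIDH1 1 and 2). Cells meeting the other limits with exactly 2 UMIs numbered 1 and 0 in mIDH1 1 and 2 and 2 and 1 in wtIDH1 1 and 2. Cells with exactly 3 numbered 2 and 2 in mIDH1 1 and 2 and 2 and 0 in wtIDH1 1 and 2. The limit on class II UMIs, in contrast, lay inside a wide spread with most cells at its ends. With the Ccr7 and Fscn1, Cd3e, Cd79a and C1q limits kept, and with 3 or more UMIs of Ccl22 and Il4i1 and fewer than 3 of Sox2 and Nes, 84 cells had 0 to 9 class II UMIs. A further 20 cells had 10 to 19, 16 had 20 to 39, 19 had 40 to 99 and 55 had 100 or more. The rule thus left out 104 such cells, called class II-low here, which numbered 32 and 11 in mIDH1 1 and 2 and 22 and 39 in wtIDH1 1 and 2.

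**Figure D1:**
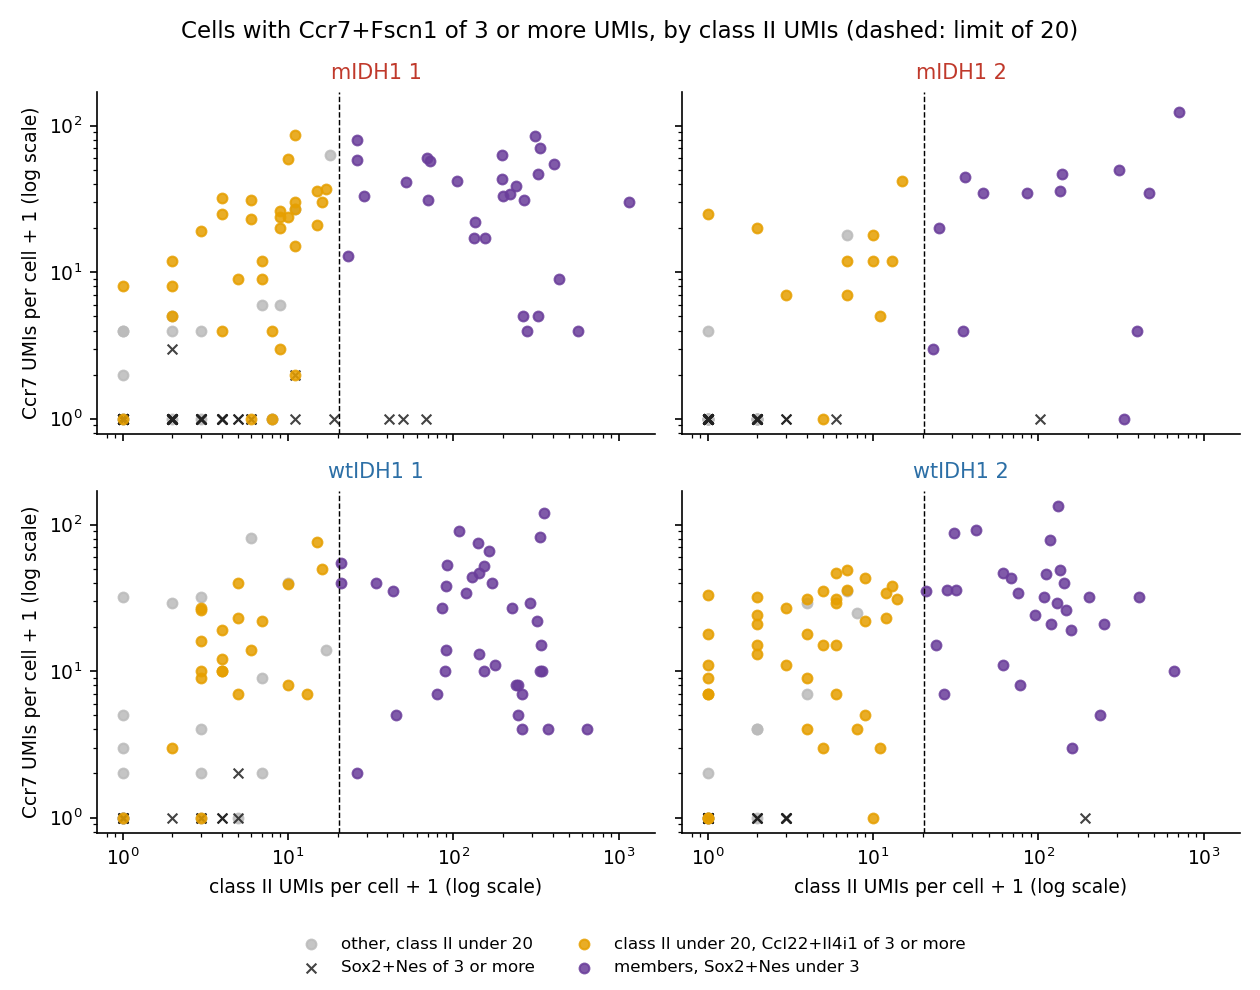
Each point is 1 kept cell with 3 or more UMIs of Ccr7 and Fscn1 and within the Cd3e, Cd79a and C1q limits, in 4 panels by library; the x axis gives class II UMIs + 1 and the y axis Ccr7 UMIs + 1, both on log scales, and the dashed line is the limit of 20. Purple members and orange cells under 20 with Ccl22 and Il4i1 UMIs overlap in Ccr7 counts. The highest orange counts are 86, 41, 75 and 48 in mIDH1 1, mIDH1 2, wtIDH1 1 and wtIDH1 2. The highest counts in the members there are 84, 124, 118 and 132. Cells with 3 or more UMIs of Sox2 and Nes (crosses) hold at most 2 Ccr7 UMIs.

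The class II-low cells held RNA of the maturation genes Cd40, Cd83 and Cd274 at levels near those of the members, and some other genes at higher levels. They had to hold Ccl22 and Il4i1 UMIs, which members did not. Pooled over the libraries, Ccr7 was 3970 CPM in the 104 class II-low cells against 3869 CPM in the 108 members, and Ccl22 was 3176 CPM against 3077 CPM, both read by the choice of the cells. Fscn1, also read by that choice, was 3704 CPM against 1336 CPM. The costimulatory gene Cd40 was 262 CPM against 280 CPM, Cd83 880 CPM against 780 CPM, and Cd274 884 CPM against 798 CPM. Cacnb3, a calcium channel subunit, was 1339 CPM in the class II-low cells and 523 CPM in the members. Tbc1d4 was 2168 CPM against 1286 CPM, Traf1 1324 CPM against 870 CPM, and Cd200 668 CPM against 457 CPM. Marcksl1 lay the other way, at 959 CPM in the class II-low cells against 1152 CPM in the members.

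A few genes outside the rule were low in them. Ciita, the coactivator that switches on class II transcription, had 0, 2, 0 and 0 UMIs in the class II-low cells of mIDH1 1, mIDH1 2, wtIDH1 1 and wtIDH1 2. In the members of those libraries it had 54, 10, 77 and 57 UMIs. The sums were unlike in size, with 170987, 49186, 99007 and 158156 UMIs in the class II-low cells. Those of the members held 256444, 113731, 305751 and 248102 UMIs. The class II-low cells were also shallower, with medians of 4406 to 4760 UMIs a library, against 7321.5 to 8739 UMIs in the members. H2-DMa, which helps load peptides onto class II, had 2, 0, 0 and 1 UMIs in the class II-low cells, against 77, 25, 70 and 54 UMIs in the members. Neither gene was part of the rule, and the genes given for this contrast were chosen after their values were seen. Cxcl9, a T cell chemokine induced by interferon gamma, was at 81.9, 20.3, 0 and 19 CPM in the class II-low cells of the 4 libraries, against 1513, 1275, 677 and 826 CPM in the members. Ifitm1 was at 52.6, 102, 162 and 171 CPM in the class II-low cells, against 3404, 2946, 3195 and 1898 CPM in the members. For each of these 4 genes every library of class II-low cells lay below every library of members. Over 1667 genes with a mean of 100 CPM or more, 30 were more than 1 log2 unit higher in the members of all 4 libraries and 10 more than 1 log2 unit lower. These values carry no test, because the cells were chosen by class II reads.

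The class II genes share promoter elements that CIITA acts through, one of which, the Y box, is an inverted CCAAT sequence. The letters TGATTGG, searched on both strands, lay in the RefSeq promoter windows (GRCm38.p6, 250 bases before to 50 after the start) of 6 of the 7 class II family genes with a window, namely H2-Aa, H2-Eb1, H2-DMb1, H2-DMb2, H2-Oa and H2-Ob, 45 to 92 bases before the start. H2-DMa had no match. Over all genes 7.82% of 32851 windows held it, or 4.01% on the gene's own strand, on which all 6 matches lay. This core was picked after 2 longer forms had been tried (CTGATTGG in 4.10% of windows, and the same with TT added at its 3′ end in 0.438%), and no match overlapped the NF-kappaB consensus. The windows of H2-DMb1 at chr17:34152941-34153240 and H2-DMb2 at chr17:34144999-34145298, both on the plus strand, are shown because these class II loading genes were not read by the rule, with the Y box core in capitals. H2-DMb1 had 4, 1, 1 and 2 UMIs in the class II-low cells of mIDH1 1, mIDH1 2, wtIDH1 1 and wtIDH1 2, against 53, 5, 54 and 41 UMIs in the members. Scaled to the unlike sums, it was at 23.4, 20.3, 10.1 and 12.6 CPM, against 207, 44.0, 177 and 165 CPM. H2-DMb2 had no UMI in the class II-low cells of the 4 libraries, against 42, 7, 45 and 42 UMIs in the members.
H2-DMb1: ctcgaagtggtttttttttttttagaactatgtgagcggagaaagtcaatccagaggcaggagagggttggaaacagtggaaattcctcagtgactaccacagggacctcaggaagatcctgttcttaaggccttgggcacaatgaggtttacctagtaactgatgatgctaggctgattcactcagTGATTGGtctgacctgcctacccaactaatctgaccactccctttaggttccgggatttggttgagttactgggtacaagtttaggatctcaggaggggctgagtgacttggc
H2-DMb2: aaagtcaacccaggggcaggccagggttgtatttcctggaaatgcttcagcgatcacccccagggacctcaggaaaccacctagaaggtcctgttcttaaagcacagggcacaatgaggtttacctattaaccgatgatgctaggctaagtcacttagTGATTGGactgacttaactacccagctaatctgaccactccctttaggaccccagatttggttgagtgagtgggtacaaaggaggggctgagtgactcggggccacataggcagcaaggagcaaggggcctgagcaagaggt

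The members were set beside the 1057 other class II-high cells (same limits, at most 2 UMIs of Ccr7 and Fscn1). They differed in many genes, with 17.9% of 7548 genes higher and 32.8% lower in all 4 libraries. This is a description without a test, since the same cells were chosen on their RNA. Of 25 maturation genes 22 were higher in the members of all 4 libraries, against 17.9% of 7548 genes with 20 CPM or more. Leading the 760 genes ranked by their smallest ratio over the libraries was Cacnb3, at 593, 519, 438 and 556 CPM in members of mIDH1 1, mIDH1 2, wtIDH1 1 and wtIDH1 2, against 4.37, 0, 0.636 and 0.795 CPM in the other class II-high cells. Cd200, a ligand that dampens myeloid cells, followed, at 379 to 487 CPM against 5.41 to 11.3 CPM. Tbc1d4, a regulator of vesicle traffic, reached 827 to 2400 CPM against 16.2 to 33.4 CPM.

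The other leaders were Ccl22, Il4i1, the serpins Serpinb6b and Serpinb9 (inhibitors of proteases such as granzyme B), the nuclear receptor Nr4a3, Stat4, Ramp3, Sema7a, Bcl2l14, Tmem123, Ly75 (the endocytic receptor DEC-205), Relb, Samsn1, Procr, Birc2, Tmcc3 and Marcksl1. Their smallest log2 ratio over the 4 libraries ran from 5.39 for Cacnb3 to 2.80 for Marcksl1. Some were also read in type 1 conventional dendritic cells among the others (3 or more UMIs of Xcr1 and Clec9a, 2 to 17 cells a library). Means there were 177 CPM for Tbc1d4, 166 CPM for Serpinb6b and 150 CPM for Serpinb9, against 1460, 845 and 760 CPM in the members. For Cacnb3 and Il4i1 the mean in those type 1 cells was 0 CPM. Of the transcription factor list 14 of 22 were higher in all 4 libraries, among them Irf8, Batf3, Zbtb46, Stat4 and Rel. Relb, the NF-kappaB subunit needed for dendritic cell maturation, was at 464, 536, 491 and 419 CPM in members of mIDH1 1, mIDH1 2, wtIDH1 1 and wtIDH1 2, against 48.7, 41.9, 49.96 and 40.9 CPM in the other cells. Both ranges were narrow and far apart.

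**Figure D2:**
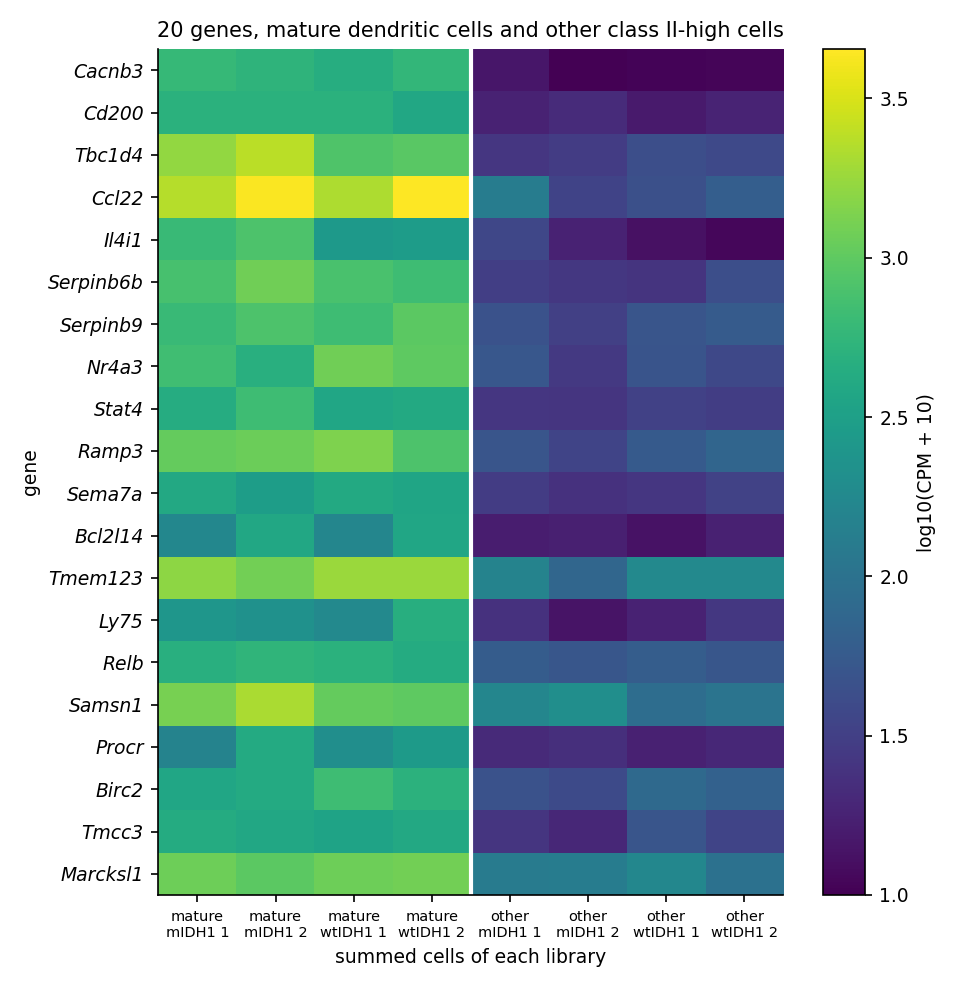
Heat map of the 20 genes with the highest smallest ratio of mature dendritic cells to other class II-high cells, by library, coloured by log10(CPM + 10). Each gene is brighter in the 4 left columns (members without Sox2+Nes cells) than in the 4 right columns, with smallest log2 ratios of 5.39 to 2.80.

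The consensus for NF-kappaB sites (both strands) lay in the windows of 2 of the 19 leading genes with a RefSeq window, Ramp3 and Tmcc3, against 5.14% of 27025 genes. Ramp3, which escorts receptors for calcitonin-family peptides to the cell surface, is shown as the gene of the 20 with a match in its only window, at chr11:6658283-6658582 on the plus strand, with the match in capitals.
Ramp3: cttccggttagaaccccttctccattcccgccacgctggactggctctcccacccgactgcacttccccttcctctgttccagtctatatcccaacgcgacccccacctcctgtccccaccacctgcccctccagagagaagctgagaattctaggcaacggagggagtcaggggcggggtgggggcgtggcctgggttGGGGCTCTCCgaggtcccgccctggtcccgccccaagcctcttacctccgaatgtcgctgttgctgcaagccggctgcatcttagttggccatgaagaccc

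Several programmes were lower in the members than in the other class II-high cells of every library. Of 20 genes of the hypoxia response 17 were lower in all 4 libraries, of 20 glycolysis genes 15, and of 19 immediate early genes 14, against 32.8% of all genes. Ldha, the last enzyme of anaerobic glycolysis, was at 281, 255, 314 and 258 CPM in members of mIDH1 1, mIDH1 2, wtIDH1 1 and wtIDH1 2, against 895, 894, 568 and 536 CPM in the other cells. All 10 macrophage and monocyte genes were lower, Arg1 being at 8.79 to 64.5 CPM in members and 793 to 3344 CPM in the other cells. The other class II-high cells are not 1 cell type and hold RNA of macrophage and monocyte genes.

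Genes of both kinds of conventional dendritic cell were read. The type 1 genes Xcr1 or Clec9a had a UMI in 18 of the 108 cells (3 or more in 6), and in 0.299% and 0.0566% of the shallower neutrophil-type barcodes of mIDH1 1 and 2, against 0% and 0.676% in wtIDH1 1 and 2. The type 2 genes Cd209a, Mgl2 or Clec10a had a UMI in 29 of the 108 cells, and in 1.40% and 1.53% of neutrophil-type barcodes of mIDH1 1 and 2, against 3.19% and 5.41% in wtIDH1 1 and 2. Summed markers of T, NK and B cells, microglia, mast cells and tumour or glia were at 0 to 84.6 CPM in each library. Ms4a1, Cd79b, Pax5, Ncr1, Eomes, Cd4, Cpa3, P2ry12, Sall1, Sox2 and Olig2 had no UMI in the 4 sums. The choice of the 108 cells partly fixes these values. It allowed no Cd3e or Cd79a UMI, few C1q UMIs and fewer than 3 UMIs of Sox2 and Nes. Neutrophil markers summed to 66.3 and 202 CPM in mIDH1 1 and 2, against 9.81 and 20.2 CPM in wtIDH1 1 and 2. Macrophage and monocyte markers summed to 347 and 132 CPM in mIDH1 1 and 2, against 942 and 826 CPM in wtIDH1 1 and 2. Both sums lay apart by genotype, in opposite directions, and their part in the gene results was not tested. The plasmacytoid list summed to 757 and 413 CPM in mIDH1 1 and 2, against 1020 and 593 CPM in wtIDH1 1 and 2, nearly all from Tcf4 and Bst2, which other cells also express, while Klk1 had no UMI.

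The secreted products were uneven between cells. Ccl22 and Ccl17 were read together in 46 of the 108 cells and Ccl17 without Ccl22 in 3. The 3 cells richest in Ccl22 held 48.4% and 78.5% of its UMIs in mIDH1 1 and 2, against 39.4% and 45.0% in wtIDH1 1 and 2, and 1 cell held 276 of the 498 UMIs of mIDH1 2. Il12b, a subunit of the T cell-activating cytokine interleukin-12, was read in 15 cells (1 and 3 in mIDH1 1 and 2, 5 and 6 in wtIDH1 1 and 2), and 1 cell of wtIDH1 2 held 117 of its UMIs. The members, less than 1.3% of kept barcodes in each library, held much of the Ccl22 RNA of the libraries. Of all Ccl22 UMIs they gave 37.9% and 69.9% in mIDH1 1 and 2, and 54.0% and 58.8% in wtIDH1 1 and 2.

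The first comparison by genotype asked how common the cells were. Among kept barcodes the 113 members were 0.823% and 0.388% in mIDH1 1 and 2 (31 and 14 cells), against 1.21% and 0.982% in wtIDH1 1 and 2 (38 and 30 cells). The 95% Wilson intervals, which cover counting error only, were 0.580 to 1.17% and 0.231 to 0.650% in mIDH1 1 and 2, against 0.884 to 1.66% and 0.689 to 1.40% in wtIDH1 1 and 2. Both mIDH1 libraries lay below both wtIDH1 libraries. The means were 0.605% ± 0.308 in mIDH1 and 1.10% ± 0.162 in wtIDH1 (SD, n = 2 libraries each), a difference of -0.49 percentage points with an exact two-sided permutation p of 0.333, which is the smallest that 2 libraries against 2 allow.

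That order depended on the denominator and on the limits. Neutrophil-type barcodes numbered 1002 and 1766 in mIDH1 1 and 2, against 94 and 148 in wtIDH1 1 and 2. Without them the shares were 1.12% and 0.759% in mIDH1 1 and 2, against 1.25% and 1.03% in wtIDH1 1 and 2, and the groups overlapped (exact permutation p = 0.667). Among class II-high barcodes the members were 15.0% and 6.64% in mIDH1 1 and 2, against 9.31% and 8.70% in wtIDH1 1 and 2. Here mIDH1 1 was highest and mIDH1 2 lowest, with means of 10.8% ± 5.95 in mIDH1 and 9.0% ± 0.437 in wtIDH1 (SD, n = 2 each; exact permutation p = 1). Without the Sox2+Nes cells the mean shares of kept barcodes were 0.552% ± 0.271 in mIDH1 and 1.08% ± 0.186 in wtIDH1 (SD, n = 2 each; exact permutation p = 0.333). With the class II-low cells added to the 108 they were 1.59% and 0.665% in mIDH1 1 and 2, against 1.91% and 2.23% in wtIDH1 1 and 2 (exact permutation p = 0.333). Among kept barcodes the groups also overlapped with no C1q UMI allowed. They overlapped with at most 5% mitochondrial UMIs, with 10 or more class II UMIs, and without the highest doublet scores (exact permutation p = 0.667 each). Members with such scores numbered 8 in wtIDH1 2 and 0 in each of the other libraries. A difference in share was thus not detectable with 2 libraries a genotype.

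**Figure D3:**
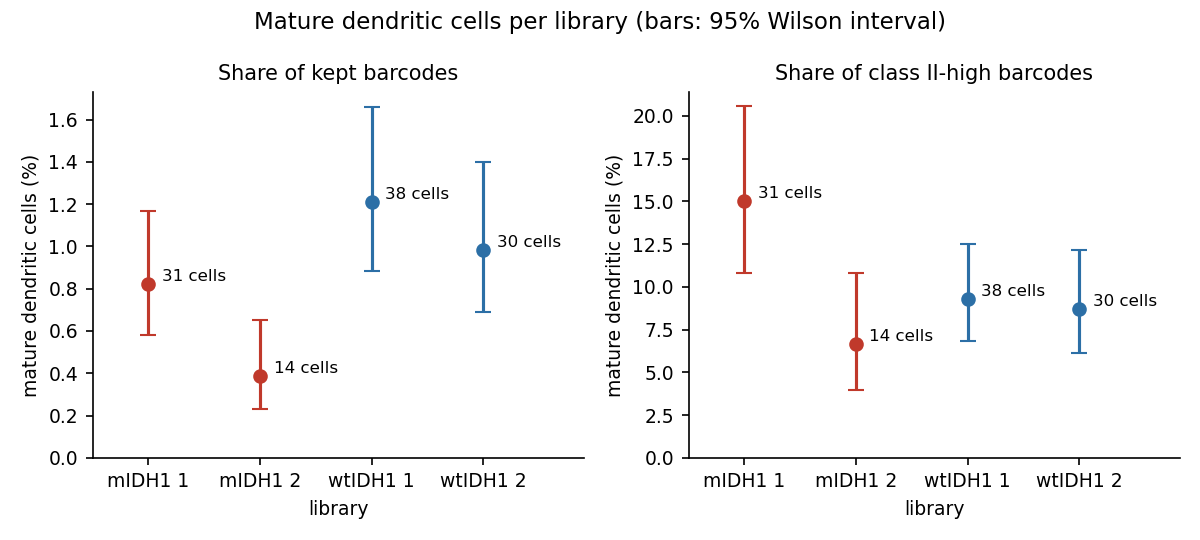
Points give the 113 members as a percentage of kept barcodes (left) and of class II-high barcodes (right) in each library, mIDH1 in red and wtIDH1 in blue, with 95% Wilson intervals and cell numbers. On the left both mIDH1 points lie below both wtIDH1 points, and on the right mIDH1 1 is highest and mIDH1 2 lowest.

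The second comparison asked which genes differed in level within the cells, from UMIs summed per library and tested with edgeR's quasi-likelihood test (Benjamini-Hochberg adjusted p under 0.05). Over all 113 cells 507 of 4335 genes were called (11.7%), 397 higher (9.16%) and 110 lower (2.54%) in mIDH1. Unadjusted p was under 0.05 for 29.6% of the 4335 genes (17.8% higher and 11.8% lower), and the libraries of the genotypes did not overlap for 61.1% (24.5% higher and 36.5% lower). Over the 108 cells 0 of 3777 genes were called (0.0%). Unadjusted p was under 0.05 for 514 genes of the 108 cells (13.6%; 8.26% higher and 5.35% lower), the lowest adjusted p was 0.0582, and DESeq2 called 75. The libraries of the genotypes did not overlap for 49.0% (16.3% higher and 32.7% lower). Of the 507 genes, 354 were tested in the 108 cells, and 336 of these kept their sign, in fits that share those cells.

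The 5 Sox2+Nes cells held most of the RNA behind the higher calls. Of the 397 higher genes, 353 had 50% or more of their mIDH1 UMIs in those cells. Among the 10 with the largest change named by rule were Rhox5, Cdkn2a, Krt18, Stmn1, Cald1, Tm4sf1, Id3, Hmga2 and Asns. Rhox5, a homeobox gene of germ cells and embryos, was at 657 and 450 CPM in mIDH1 1 and 2 and had no UMI in wtIDH1 1 or 2, and 351 of its 352 UMIs lay in the Sox2+Nes cells.

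**Figure D4:**
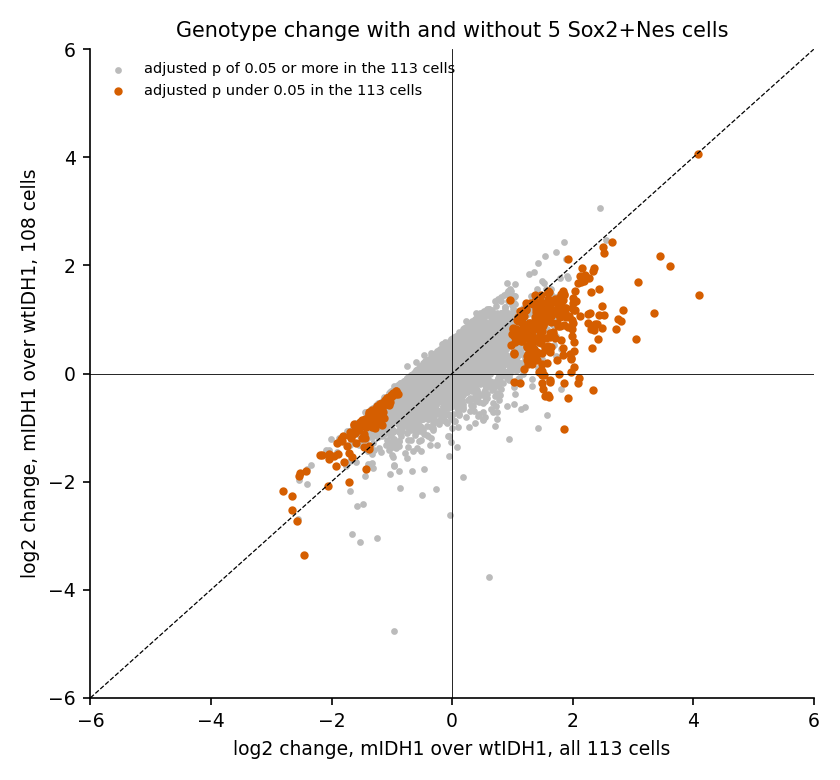
Each point is 1 of 3702 genes tested both ways, with its log2 change (mIDH1 over wtIDH1) over all 113 cells on the x axis and over the 108 cells without Sox2+Nes cells on the y axis; orange marks the 354 genes called over the 113 cells and the dashed line equal change. Of the orange genes 342 have a smaller change in the 108 cells, and 1 gene lies outside the axes.

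The lower calls of the 113-cell fit included genes of antigen-presenting and myeloid cells. In those sums the Sox2+Nes cells gave 37.24% of all UMIs of the mIDH1 members. Their part in the lower calls was not tested, and 0 of the calls held in the 108 cells. The 10 lower genes with the largest change were Dapk1, Naaa, Tgfbi, Neurl3, Dck, Plbd1, Usp18, Laptm5, Tbl1xr1 and Spint1. Naaa, a lysosomal amidase of type 1 dendritic cells, was at 9.55 and 35.1 CPM in the 113-cell sums of mIDH1 1 and 2, against 114 and 123 CPM in wtIDH1 1 and 2. Both mIDH1 libraries lay below both wtIDH1 libraries (log2 change -2.54, SE 0.57, adjusted p = 0.0244). In the 108 cells Naaa was at 15.6 and 52.8 CPM in mIDH1 1 and 2, against 114 and 125 CPM in wtIDH1 1 and 2 (log2 change -1.90, SE 0.54, adjusted p = 0.164). All 10 genes had a negative log2 change in the 108 cells too, at adjusted p of 0.0582 to 0.272. Since the 108 cells are part of the 113, the shared sign is no independent check.

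Ccr7, read by the rule and so given without a test, was at 3899 and 3754 CPM in the 108-cell sums of mIDH1 1 and 2, against 3676 and 4127 CPM in wtIDH1 1 and 2, and the groups overlapped. Ccl22 was at 2273 and 4379 CPM in mIDH1 1 and 2, against 2110 and 4502 CPM in wtIDH1 1 and 2, so the libraries of 1 genotype differed more than the genotypes (log2 change 0.22, SE 0.41, adjusted p = 0.864). Cd274 was at 807 and 721 CPM in mIDH1 1 and 2, against 890 and 709 CPM in wtIDH1 1 and 2 (log2 change 0.11, SE 0.27, adjusted p = 0.90). In the 113-cell fit the log2 changes of Ccl22 and Cd274 were -0.38 and -0.47, with adjusted p of 0.608 and 0.276.

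Il4i1 was at 616 and 818 CPM in mIDH1 1 and 2, against 265 and 282 CPM in wtIDH1 1 and 2. Both mIDH1 libraries lay above both wtIDH1 libraries, but the gene missed the threshold (log2 change 1.57, SE 0.31, unadjusted p = 0.000288, adjusted p = 0.0991; 113 cells, 0.95, SE 0.31, adjusted p = 0.0741). Its protein breaks down phenylalanine and tryptophan and restrains T cells. Of the 18 genes of the regulatory list 10 were tested, 0 were called, 1 lay apart upwards and 1 downwards (16.3% and 32.7% over all 3777 genes). Changes were positive for 9 of the 10, against 49.01% of all genes, and the median was 0.39 against -0.02. In the 113-cell fit 4 of 11 were positive and the median was -0.28.

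Of the 8 chemokines tested 7 had positive changes. Ccl5 was at 1556 and 1970 CPM in mIDH1 1 and 2, against 1020 and 786 CPM in wtIDH1 1 and 2 (log2 change 1.15, SE 0.30, adjusted p = 0.144; 113 cells, 0.54, adjusted p = 0.267). Cxcl9 was at 1513 and 1275 CPM in mIDH1 1 and 2, against 677 and 826 CPM in wtIDH1 1 and 2 (log2 change 1.08, SE 0.27, adjusted p = 0.136; 113 cells, 0.61, adjusted p = 0.148). The groups did not overlap for either gene in the 108 cells, and neither was called. The 3 cells richest in Ccl5 held 54.9% and 73.7% of its UMIs in mIDH1 1 and 2, against 40.7% and 80.0% in wtIDH1 1 and 2. Ccl17 was at 768 and 2761 CPM in mIDH1 1 and 2, against 373 and 1435 CPM in wtIDH1 1 and 2, which overlapped (113 cells, log2 change 0.61, adjusted p = 0.588). Of the 8 genes 3 lay apart upwards and 1 downwards, where 16.3% and 32.7% of the 3777 genes did. Over the 113 cells 5 of 8 were positive and 0 were called.

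The maturation list was mixed. Of its 24 tested genes 0 were called, 8 lay apart upwards and 6 downwards (16.3% and 32.7% over all genes), and the median log2 change was 0.33. Tbc1d4 was at 1685 and 2400 CPM in mIDH1 1 and 2, against 827 and 927 CPM in wtIDH1 1 and 2 (log2 change 1.42, SE 0.30, adjusted p = 0.115; 113 cells, 0.80, adjusted p = 0.113). Apol7c, an apolipoprotein L family member, was at 66.3 and 114 CPM in mIDH1 1 and 2, against 3.27 and 20.2 CPM in wtIDH1 1 and 2 (log2 change 3.06, SE 0.72, adjusted p = 0.125; 113 cells, 2.46, adjusted p = 0.0610). Few cells held Apol7c, 4 and 2 in mIDH1 1 and 2, and 1 and 2 in wtIDH1 1 and 2. In mIDH1 1 1 cell held 11 of its 17 UMIs, and in mIDH1 2 1 cell held 9 of 13. Both mIDH1 libraries lay above both wtIDH1 libraries for either gene, and neither was called. Cd80 lay the other way, at 117 and 106 CPM in mIDH1 1 and 2, against 180 and 189 CPM in wtIDH1 1 and 2 (log2 change -0.55, adjusted p = 0.504; 113 cells, -1.13, adjusted p = 0.0559). In the 113-cell fit 3 of the 24 were called lower, against 2.54% of all genes, and the median was -0.27.

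Changes were negative for 12 of 20 transcription factors and 10 of 12 cytokine genes tested, against 50.99% of all genes. Of the cytokine genes 5 lay apart downwards and none upwards, and in the 113-cell fit 12 of 12 were negative and 2 were called lower. Of the 20 transcription factors 0 were called, 2 lay apart upwards and 9 downwards (16.3% and 32.7% over all genes). Nr4a3, a nuclear receptor needed for dendritic cell migration in mice, was at 679 and 466 CPM in mIDH1 1 and 2, against 1191 and 987 CPM in wtIDH1 1 and 2 (log2 change -0.74, SE 0.28, adjusted p = 0.298). It was called in the 113-cell fit (log2 change -1.38, SE 0.27, adjusted p = 0.0145), in which 5 of the 20 were called lower. Il12b was at 15.6 and 290 CPM in mIDH1 1 and 2, against 154 and 1016 CPM in wtIDH1 1 and 2, which overlapped (113 cells, log2 change -2.53, adjusted p = 0.145). Of the 15 immediate early genes tested 10 lay apart downwards and none upwards, with Fos at 50.7 and 79.1 CPM in mIDH1 1 and 2, against 226 and 173 CPM in wtIDH1 1 and 2 (log2 change -1.54, adjusted p = 0.150; 113 cells, -0.99, adjusted p = 0.0873). Over the 113 cells 4 of 16 immediate early genes were called lower. These counts of lower calls stand against 2.54% of all genes, and those of genes apart against 16.3% upwards and 32.7% downwards.

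**Figure D5:**
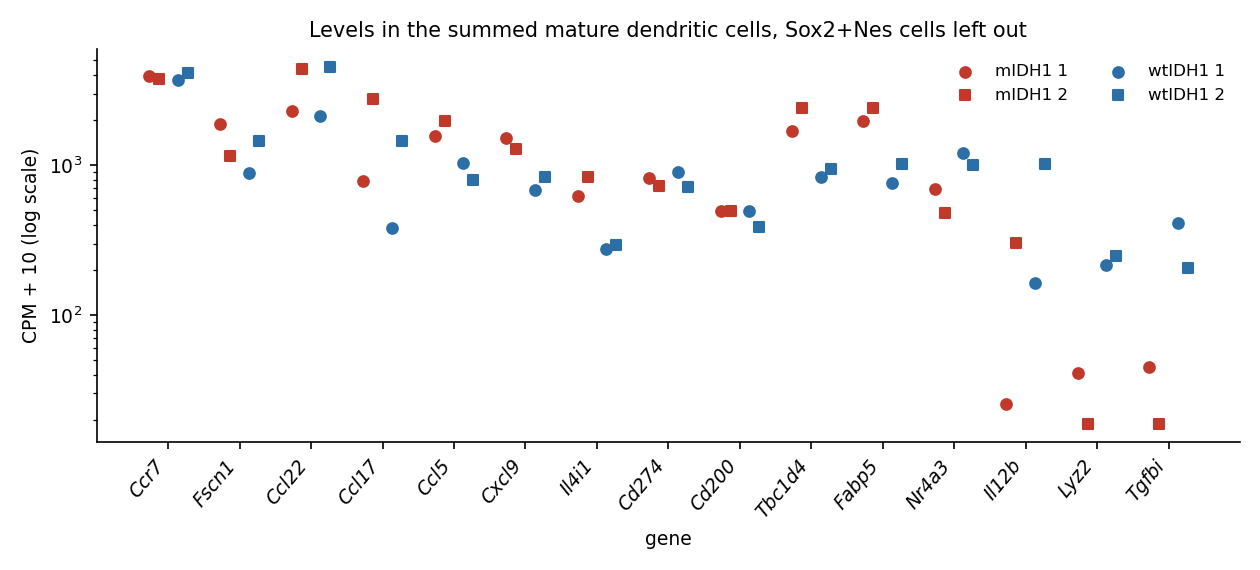
CPM + 10 (log scale) of 15 genes in the summed members without Sox2+Nes cells, with mIDH1 libraries in red and wtIDH1 libraries in blue (circles replicate 1, squares replicate 2). Ccr7, Cd274 and Cd200 lie close together in all 4 libraries, Il4i1, Ccl5, Cxcl9, Tbc1d4 and Fabp5 lie higher in both mIDH1 libraries, and Lyz2 and Tgfbi lie lower in both.

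Ribosomal protein genes had the lowest p of the higher genes named. Rpl34 was at 1490 and 2242 CPM in mIDH1 1 and 2, against 589 and 625 CPM in wtIDH1 1 and 2 (log2 change 1.82, SE 0.32, adjusted p = 0.0690; 113 cells, 2.21, adjusted p = 0.00666). Rpl32 and Rps15a followed, with log2 changes of 1.90 and 1.81 in the 108 cells and 2.34 and 2.12 in the 113 cells. Of 86 ribosomal protein genes, a list chosen after the values were seen, 68 lay apart upwards and 5 downwards (16.3% and 32.7% over all genes). Their median was 0.91, and 61 were called higher in the 113-cell fit, where 9.16% of all genes were. The ribosomal protein share of UMIs was 11.2% and 15.2% in members of mIDH1 1 and 2, against 8.45% and 8.44% in wtIDH1 1 and 2. In all kept barcodes it was 16.2% and 17.5% in mIDH1 1 and 2, against 11.1% and 11.7% in wtIDH1 1 and 2. In the other class II-high cells it was 13.6% and 17.0% in mIDH1 1 and 2, against 10.2% and 11.3% in wtIDH1 1 and 2. In neutrophil-type barcodes it was 9.04% and 7.65% in mIDH1 1 and 2, against 8.39% and 7.33% in wtIDH1 1 and 2, which overlapped. Gm42418, a transcript that overlaps ribosomal RNA and was picked after its values were seen, gave 2.50% and 2.68% of UMIs in members of mIDH1 1 and 2, against 4.23% and 4.29% in wtIDH1 1 and 2. Of 17 nuclear respiratory chain genes tested 12 lay apart upwards and 1 downwards (16.3% and 32.7% over all genes), with a median of 0.70. The part of these shifts in the other results was not tested.

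The remaining lists gave 0 calls in the 108 cells, and their counts stand against 16.3% of all genes apart upwards and 32.7% downwards. Of 10 class II presentation genes tested 5 lay apart downwards and none upwards (median -0.29), and of 29 genes of the type I interferon response 8 (a share below that of all genes) lay apart downwards and 1 upwards (median -0.16). Of 17 class I presentation genes 8 lay apart upwards and 5 downwards (median 0.28), and of 13 migration genes 5 upwards and 3 downwards (median 0.21). Of 16 glycolysis genes 2 lay apart upwards and 1 downwards (median 0.09). Irf7, a factor of the interferon response, was at 164 and 149 CPM in mIDH1 1 and 2, against 618 and 234 CPM in wtIDH1 1 and 2 (log2 change -1.28, not called; 113 cells, -1.59, adjusted p = 0.0491). In the 113-cell fit 1 class II gene was called higher and 3 lower of 9, 2 interferon genes lower of 29, 1 class I gene higher of 18, 1 migration gene higher and 1 lower of 14, and 5 glycolysis and 9 respiratory chain genes higher of 16 and 18. Over all genes of that fit 9.16% were called higher and 2.54% lower.

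On the lower side the genes of lowest p were Lyz2, Tgfbi, Trib1, Cebpb and Xbp1. Lyz2, a lysozyme of monocytes and macrophages, was at 31.2 and 8.79 CPM in mIDH1 1 and 2, against 206 and 238 CPM in wtIDH1 1 and 2. The groups did not overlap, and the gene missed the threshold (log2 change -3.05, SE 0.46, adjusted p = 0.0582; 113 cells, -1.25, adjusted p = 0.288). In wtIDH1 most of its UMIs lay in single cells, since 1 cell held 47 of the 63 Lyz2 UMIs of wtIDH1 1 and 1 cell 44 of the 59 of wtIDH1 2. Without the richest cell of each library Lyz2 was at 24.5 and 0 CPM in mIDH1 1 and 2, against 56.5 and 63.7 CPM in wtIDH1 1 and 2. In the other 98 cells Lyz2 was at 29.3 and 8.79 CPM in mIDH1 1 and 2, against 42.0 and 65.8 CPM in wtIDH1 1 and 2. Trib1, a pseudokinase, kept a similar gap in those 98 cells, at 50.3 and 44.0 CPM in mIDH1 1 and 2, against 168 and 206 CPM in wtIDH1 1 and 2 (log2 change -1.80, adjusted p = 0.0846), and was called over the 113 cells (-1.79, adjusted p = 0.0210).

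The third comparison asked whether the genotype change within these cells differed from that in the other class II-high cells of the same libraries, by an interaction term in edgeR with the library as a block. In the 108 cells 35 of 8428 genes were called (0.415%), 3 with a higher (0.0356%) and 32 with a lower (0.38%) change in the mature cells. In the 113 cells, with Sox2+Nes cells kept among the other class II-high cells too, 107 of 8878 were called (1.21%). Of these 61 were higher (0.687%) and 46 lower (0.518%), and 13 genes were called in both fits. The 3 with a higher change in the 108 cells were Tbc1d4, Flt3 and Ogfrl1, the last chosen after its value was seen. Tbc1d4, given above in the mature cells, was at 16.2 and 19.9 CPM in the other class II-high cells of mIDH1 1 and 2, against 33.4 and 28.2 CPM in those of wtIDH1 1 and 2. The difference of the log2 changes was 1.82 (SE 0.31, adjusted p = 0.00115) in the 108 cells and 1.19 (SE 0.32, adjusted p = 0.0813) in the 113 cells.

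Flt3, the receptor for the growth factor of dendritic cells, was at 425 and 308 CPM in the mature cells of mIDH1 1 and 2, against 327 and 343 CPM in those of wtIDH1 1 and 2, which overlapped. In the other class II-high cells it was at 45.6 and 29.5 CPM in mIDH1 1 and 2, against 90.7 and 122 CPM in wtIDH1 1 and 2, which did not. The difference of the log2 changes was 1.45 (SE 0.32, adjusted p = 0.0176) in the 108 cells and 0.81 (SE 0.34, adjusted p = 0.291) in the 113 cells. Arg1, an arginine-degrading enzyme of tumour macrophages, was in the opposite position, at 3344 and 2941 CPM in the other cells of mIDH1 1 and 2, against 929 and 793 CPM in those of wtIDH1 1 and 2. In the mature cells it was at 15.6 and 8.79 CPM in mIDH1 1 and 2, against 16.4 and 64.5 CPM in wtIDH1 1 and 2 (difference -3.56, SE 0.62, adjusted p = 0.00139). In the 113-cell fit the difference for Arg1 was 0.19 with an adjusted p of 0.974. The shares of macrophages, monocytes and dendritic cells among the other class II-high cells were not held equal between genotypes, so a difference there may lie in the mixture or in the level per cell, which cannot be told apart.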

How the data were processed

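Single-cell RNA of 4 libraries was analysed from matrices of raw UMI counts per gene and barcode that the authors deposited, 1 per library, with 31053 genes. Per the labels' protocols and the submitters' processing notes they were made with Cell Ranger 3.1 on mm10, whereas the software version per the file headers is 3.0.0. The labels also describe a scaling to equal depth, which the deposited counts, of unequal depth, do not show. Doublets were scored with Scrublet (scanpy 1.11.5), whose automatic call marked 1 to 3 barcodes a library and so did not work. All barcodes stayed in, except in the alternative that left out the highest doublet scores (0.8% of barcodes per 1000 barcodes).

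UMI sums per library and cell class went into the quasi-likelihood test of edgeR 4.0.16 (R 4.3.3; trimmed mean normalization, default filter, Benjamini-Hochberg adjustment over all genes tested). edgeR's SE is the log2 change divided by the square root of F. DESeq2 1.42.0 was an alternative. The script was tested on simulated data. Shares were compared by exact permutation over libraries. CPM is scaled to 1000000 summed UMIs.

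The members and lists were chosen with earlier results of these data known. Genes were named as rule genes or markers, as list members, as up to 10 called genes a direction by size (libraries apart, mean CPM of 50 or more), as the 5 of lowest p where fewer than 5 were called (mean CPM of 100 or more), or as the 20 leading genes of the description (mean CPM of 200 or more). A few genes that these rules name are not reported here. Other genes are said to be chosen after their values were seen. The Sox2+Nes and class II-low groups were defined after the data were seen. Alternatives changed the limits, depth, normalization, filter, tool and libraries used.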

Additional observations from a re-analysis of the deposited data

Results flagged for a closer look

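The genotype change (mIDH1 over wtIDH1) differed between mature dendritic cells and other class II-high cells, by edgeR's interaction test in both the 108-cell and the 113-cell fit, for 13 genes, of which 12 had UMIs in the mature cells of both genotypes. All 12 had a lower change in the mature cells. As differences of log2 changes in the 108-cell fit, monocyte and macrophage genes gave -4.55 for Lyz2, -3.07 for Tgfbi, -2.62 for Ly6c2, -3.07 for Csf1r, -2.47 for Fcgr2b and -3.19 for Ccl9. These rest on few UMIs in the mature cells of mIDH1 1 and 2. Lyz2 had 8 and 1, Tgfbi 9 and 1, Ly6c2 6 and 4, Csf1r 4 and 0, Fcgr2b 8 and 2, and Ccl9 2 and 2. The enzymes Tgm2 and Upp1 gave -1.85 and -2.17, the complement gene C3 -1.93, the Notch effector Rbpj -1.72, Trib1 -1.67 and AA467197 -1.01.

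Lyz2 was at 31.2 and 8.79 CPM in mature cells of mIDH1 1 and 2, against 206 and 238 CPM in those of wtIDH1 1 and 2. In the other class II-high cells it was at 2274 and 4734 CPM in mIDH1 1 and 2, against 1340 and 1318 CPM in wtIDH1 1 and 2, the opposite order. In the mature cells 1 cell held 47 of the 63 Lyz2 UMIs of wtIDH1 1 and 1 cell 44 of the 59 of wtIDH1 2. Without the richest cell of each library Lyz2 was at 24.5 and 0 CPM in mIDH1 1 and 2, against 56.5 and 63.7 CPM in wtIDH1 1 and 2. With only the 98 mature cells that held Ccl22 or Il4i1 the difference for Lyz2 was -2.61 (adjusted p = 0.00130) and that for Tgfbi -2.00 (adjusted p = 0.00439). In those cells Ly6c2 was at 20.9 and 35.2 CPM in mIDH1 1 and 2, against 130 and 4.39 CPM in wtIDH1 1 and 2, which overlapped. Csf1r was at 16.8 and 0 CPM in mIDH1 1 and 2, against 29.4 and 43.9 CPM in wtIDH1 1 and 2. Upp1 was at 133 and 79.1 CPM in mature cells of mIDH1 1 and 2, against 118 and 56.4 CPM in those of wtIDH1 1 and 2, while in the other cells it was at 208 and 272 CPM in mIDH1 1 and 2, against 58.2 and 29.8 CPM in wtIDH1 1 and 2.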

How the results depend on the processing

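The count of genes called over the 113 members (507) was 221 with DESeq2, 997 with no filter, 275 with 5 or more Ccr7 and Fscn1 UMIs, 40 with no C1q UMI allowed and 29 with members capped at 5000 UMIs. It was 0 with cells holding RNA of other types left out, with Sox2+Nes cells left out and with 1 or more Ccr7 UMIs required. Leaving out 1 library gave 167 (without wtIDH1 1) to 756 (without mIDH1 1). Over the 108 cells the count (0) was 5 with library totals, 75 with DESeq2, 121 with no filter and 5 with 10 or more class II UMIs. It was 7 (without wtIDH1 2) to 333 (without mIDH1 1) with 1 library left out, which assumes that the lone library varies like the others. The count of differing genotype changes (107) was 34 with 10 or more UMIs in every sum, 35 without Sox2+Nes cells, 29 without these and the cells lacking Ccl22 and Il4i1, and 92 (without wtIDH1 2) to 424 (without mIDH1 2) with 1 library left out. The difference in share of class II-high barcodes (1.84 percentage points) was -2.37 without mIDH1 1 and 6.04 without mIDH1 2. The share of kept barcodes kept its sign in every alternative run. The cause of each shift was not tested.

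With the replicate number as a block 508 genes were called over the 113 cells and 0 over the 108. Same-numbered libraries deviated together only weakly (r = 0.0684 and 0.0540 across genes), and nothing in the labels pairs them. For the named genes 66 of 326 alternative values over the 113 cells fell short of the threshold, and 42 of 109 over the 108 cells passed it. A gene that a setting did not test gave no value there. With Sox2+Nes cells left out, Rhox5 and the other named higher genes were not tested. The 10 values that remained in that setting all fell short. None of these alternative values changed sign. Cebpb, named from the 108-cell fit (log2 change -1.91), had the opposite sign in the 113-cell fit (0.18), which was not among the alternatives for the 108 cells.

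The precision rests on few cells and UMIs: the mIDH1 sums of the 108 cells held 256444 and 113731 UMIs, against 305751 and 248102 UMIs in wtIDH1, from 13 to 38 cells a library.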
